A study of Mus musculus with 6 samples.

Results

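The genes described here encode the core machinery that makes microRNAs and uses them to silence messenger RNAs: Drosha, Dgcr8, Xpo5, Dicer1, the Argonautes Ago1, Ago2 and Ago3, and the scaffold proteins Tnrc6a, Tnrc6b and Tnrc6c. They were chosen by name, and all 10 had a row among the 35977 rows of the table of read counts. The measured material was messenger RNA of whole mouse liver, read by bulk sequencing. The 3 Cre-miR122 libraries (replicates 1, 2 and 4) came from livers of mice given AAV9-Tnnt2-Cre-miR122. The 3 Cre libraries (replicates 10, 11 and 12) came from livers of mice given AAV9-Tnnt2-Cre. AAV9 is an adeno-associated virus used for gene delivery, and all 6 libraries came from livers given a vector in which the Tnnt2 promoter, that of the cardiac troponin T gene and active chiefly in heart muscle, drives Cre recombinase. The added element is named miR122TS in the series design, and miR-122 is the most abundant microRNA of hepatocytes. No uninjected liver was analysed here, and the labels give no strain, age, sex, dose, time after injection or batch. Nor do they say that the libraries came from separate animals, so a p-value here reflects the scatter among the libraries, which may be partly technical.

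In animals, a long primary transcript is cut in the nucleus by the Microprocessor, in which the RNase DROSHA works with the RNA-binding protein DGCR8. Exportin 5, the product of Xpo5, carries the resulting hairpin to the cytoplasm, where the RNase DICER1 cuts it to a short duplex. An Argonaute protein keeps a single strand of that duplex, pairs it with a target messenger RNA, and binds a TNRC6 protein (also called GW182), which recruits the enzymes that shorten the poly(A) tail and remove the cap. Among the mouse Argonautes AGO2 is the main one that cuts a fully paired target itself. Targets placed in a vector's transcript are silenced by this machinery in cells that hold the matching microRNA.

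None of the 10 genes passed the test between the vectors once p-values were adjusted over all genes. With the edgeR quasi-likelihood test and Benjamini-Hochberg adjustment over all 14374 genes tested, 0 members were called higher and 0 lower, and the smallest adjusted p of a member was 0.816. The background was the same: 0% of all genes tested were called. DESeq2 and limma-voom also called 0 members. An unadjusted p under 0.05 was reached by 1 of 10 members, Xpo5, beside 5.41% of all genes. That number of members was 0 with library totals alone as scaling and with DESeq2, and 2 without the expression filter. It was also 0 without Cre-miR122 replicate 4, without Cre replicate 10 or without Cre replicate 12. The log2 difference, Cre-miR122 minus Cre, was above 0 in 8 of 10 members, beside 7096 of the 14374 genes tested. Its median was 0.089 over the members and −0.0029 over all genes tested. The 95% intervals of the 10 members ran from 0.812 to 1.53 in fold, so a fold below or above these bounds lay outside the interval of every member.

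**Figure D1:**
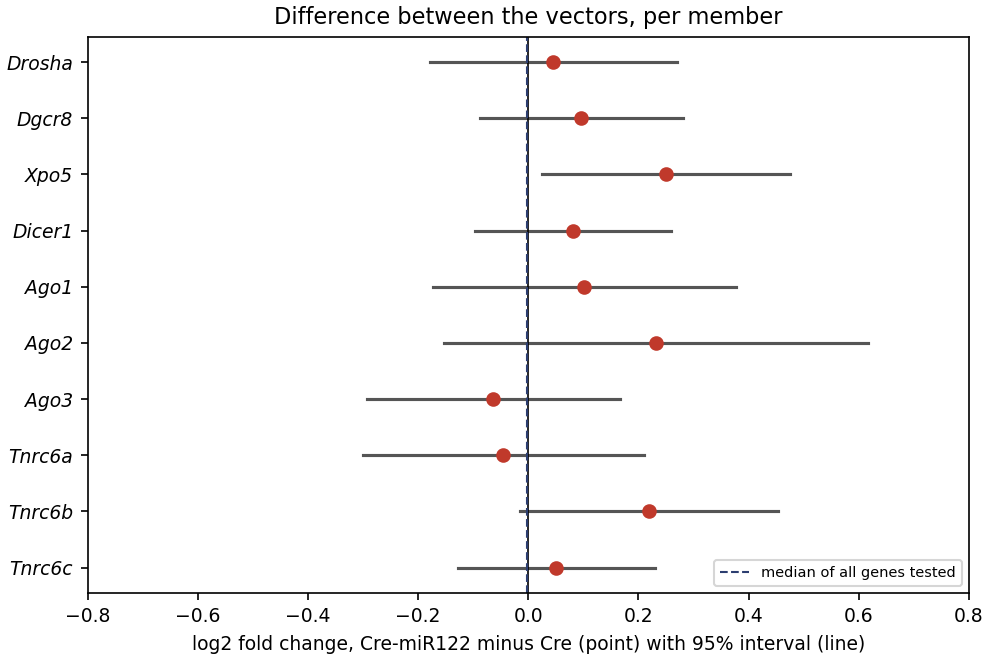
Log2 difference of each member, Cre-miR122 minus Cre, with its 95% interval from the edgeR quasi-likelihood fit (n = 3 libraries a group); the solid vertical line marks 0 and the dashed line the median of all genes tested. The interval of Xpo5 lies above 0 before adjustment, and those of the other 9 members include 0.

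The libraries were of like depth, with 20340994 to 20817837 counts each. The Cre row held 12, 16 and 10 counts in the Cre-miR122 libraries, against 61, 50 and 37 counts in the Cre libraries. The fitted log2 difference of Cre was −1.95 and was not called (edgeR, adjusted p = 0.816); it was called when no expression filter was applied (adjusted p = 0.0392) and by DESeq2 (adjusted p = 0.0047). Cre replicate 10 stood apart from the other 5 libraries in sex-linked genes, with 5 counts of Xist and 1676 of Ddx3y, against at least 15778 and at most 1 in the others. By these counts Cre replicate 10 was male and the other 5 libraries were female, so the Cre group mixed the sexes. The part of sex in the members' values was not tested. Without Cre replicate 10 the median log2 difference of the members was 0.079. The liver markers were present, at 139823 to 142420 summed CPM (counts scaled to a common library total) of hepatocyte genes in Cre-miR122 livers and 121531 to 145710 in Cre livers. Heart muscle markers summed to at most 2.19 CPM in Cre-miR122 livers and 1.12 CPM in Cre livers, with Myh7 and Actc1 at 0 throughout. The 7 lymphocyte markers summed to between 11.7 and 12.7 CPM in Cre-miR122 livers and between 15.5 and 18.7 CPM in Cre livers. These ranges did not overlap. The B-cell genes Cd79b, Cd79a and Ms4a1 were the highest of the 7, at means of 4.26, 4.10 and 2.63 CPM. Of the 7 log2 differences 6 were below 0 and 1 above, with a median of −0.43, and 0 were called. An unadjusted edgeR p under 0.05 was reached by 3 of the 7, all lower in Cre-miR122 livers, beside 5.41% of all genes. Groups did not overlap in 4 of the 7, beside 5.7% of all genes tested with Cre-miR122 higher and 5.44% lower. Summed ranges of Kupffer cell, endothelial, stellate cell, cholangiocyte and erythroid markers overlapped. The part of the lymphocyte difference in the members' values was not tested. In bulk tissue, fewer cells of a type and less RNA per cell cannot be told apart.

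Some members also carry microRNA hairpins within their own genes, shown here because the Microprocessor is known to cut hairpins in the Dgcr8 messenger RNA itself. RefSeq (GRCm38.p6) places Mir1306 in a coding exon of Dgcr8, at chr16:18284239-18284317 on the minus strand. A second hairpin, listed in the table as Gm24572, lies in an untranslated exon of Dgcr8 at chr16:18284550-18284637. In the hairpin, capitals mark both mature arms; in each mature sequence, capitals mark the seed (bases 2 to 8), the stretch that pairs with targets. All are written 5′ to 3′.
Mir1306 hairpin: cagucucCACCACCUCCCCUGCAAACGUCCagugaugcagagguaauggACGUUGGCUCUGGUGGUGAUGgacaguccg
mmu-miR-1306-5p: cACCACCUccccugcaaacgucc
mmu-miR-1306-3p: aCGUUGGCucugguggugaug
mmu-miR-3618-5p: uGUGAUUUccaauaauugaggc
mmu-miR-3618-3p: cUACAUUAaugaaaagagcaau
None of these 4 seeds is shared between arms. Mir693, in an intron of Xpo5 (chr17:46231531-46231619), and Mir5113, in an untranslated exon of Tnrc6b (chr15:80940039-80940120), lie on the strand of their hosts. Mir1306, Mir693 and Mir5113 were at 0 counts in all 6 libraries. All 79 bases of Mir1306 and all 82 of Mir5113 are shared with host exons on the same strand. Reads there may have been counted for the host or left out, so 0 counts do not show that no reads lay there. Messenger RNA libraries do not hold mature microRNAs, so the level of no microRNA was measured.

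The promoters read for the members held the dinucleotide CpG at numbers from near the middle of all promoters to near the top. RefSeq start windows of 300 bases (250 before the start, 50 after) were matched for 9 of 10 members, 11 windows in all. The number of CpG per window ran from 9 in the second window of Tnrc6b to 49 in Dicer1. All 11 windows lay above the median of 7 over 32851 windows of the same length, as did 48.6% of all windows. The second Tnrc6b window and the Tnrc6a window, with 11 CpG and a GC content of 44.7% against a median of 52.7%, had more CpG than 54.2% and 58.6% of all windows, and Dicer1 more than 99.0%. The Tnrc6a window and the second Tnrc6b window belong to starts far inside the counted genes. They begin at chr7:123123635 and chr15:80798360, while the genes begin at chr7:123031101 and chr15:80711313. The Dicer1 window, chr12:104751903-104752202 on the minus strand, also lies inside its counted gene, whose outer start is at chr12:104752324. The starts read for Drosha, Dgcr8, Ago1, Ago3 and Tnrc6c lie a shorter way inside. No window was read at the outer start of Tnrc6a or Dicer1. The TATA hexamer TATAAA, searched on both strands, was in 0 of the 11 windows, against 13.6% of all windows, which says only that these letters are not there. The 250 bases before the start are printed for Xpo5 (chr17:46202561-46202810, plus strand) and for the upstream start of Tnrc6b (chr15:80711063-80711312, plus strand). These are the members with the smallest unadjusted p-values, and the first holds 33 CpG and the second 14. Capitals mark each CpG.
Xpo5: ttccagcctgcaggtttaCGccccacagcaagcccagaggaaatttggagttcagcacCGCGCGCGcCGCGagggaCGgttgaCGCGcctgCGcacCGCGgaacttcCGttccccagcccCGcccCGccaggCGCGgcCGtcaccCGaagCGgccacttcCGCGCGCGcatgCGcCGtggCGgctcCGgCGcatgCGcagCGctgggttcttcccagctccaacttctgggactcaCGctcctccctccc
Tnrc6b: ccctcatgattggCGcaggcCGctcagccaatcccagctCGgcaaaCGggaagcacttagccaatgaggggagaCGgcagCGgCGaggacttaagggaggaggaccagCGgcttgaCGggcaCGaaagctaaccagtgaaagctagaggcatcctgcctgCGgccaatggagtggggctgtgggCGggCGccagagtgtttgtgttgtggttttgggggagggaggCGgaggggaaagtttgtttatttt

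The transcripts of the machinery were modest in level, and they differed more from each other than between vectors. Levels are compared per length, as CPM per kilobase of the gene's merged exons in the table (CPM per kb), averaged over the 6 libraries. Tnrc6a was highest at 6.12 CPM per kb, above 62.0% of the genes tested, and its range did not overlap that of Xpo5 (3.87), next in order. Xpo5 and Dicer1 (3.83) could not be ordered, since Xpo5 was above Dicer1 in 2 of 6 libraries. Ago1 at 3.15 and Drosha at 2.83 followed, with ranges that overlapped their neighbours' above. Tnrc6c (2.23), Tnrc6b (1.96) and Dgcr8 (1.76) came next, below Drosha in every library, and each overlapped the next in range. Ago3 at 0.947 and Ago2 at 0.570 CPM per kb were the lowest members, and the range of each over the 6 libraries lay below that of its neighbour above. Ago2 lay above only 15.4% of the genes tested. The order between the highest and the lowest members depends on the length used. In means per kilobase of the longest GENCODE transcript, Dicer1 (4.53) and Dgcr8 (4.16) lay above Ago1 (3.24), Drosha (2.92) and Xpo5 (2.83). On that scale Tnrc6b (1.98) lay above Tnrc6c (1.83). Counts came only from the table's exons, and for Xpo5, Tnrc6c and Ago2 the longest transcript is longer than those exons. For Xpo5 it has 5081 bases against 3709, and for Tnrc6c 11590 against 9535. Dividing by it lowers their values through bases where no read was counted, so their places on that scale do not show lower levels.

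**Figure D2:**
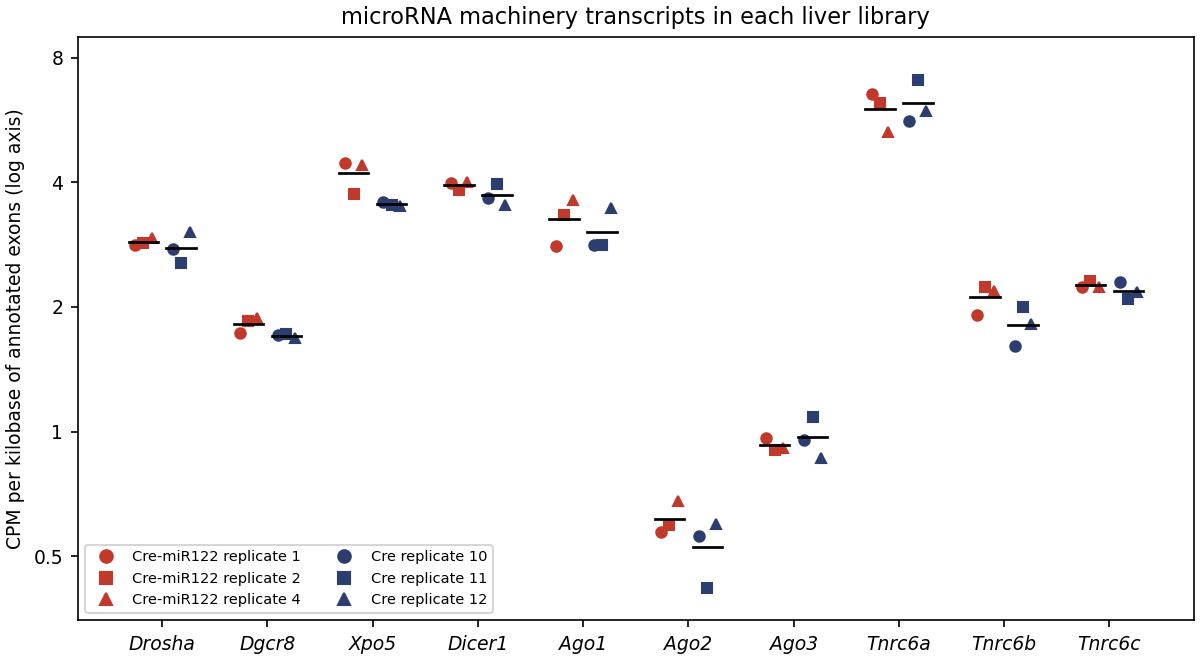
Level of each member in each library, in CPM per kb on a log axis, for Cre-miR122 livers (red, left in each pair) and Cre livers (blue, right); points are libraries and short lines are means. Tnrc6a is the highest member and Ago2 the lowest in all 6 libraries, and the vectors overlap in 8 of 10 members.

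The Microprocessor transcripts lay close together in both groups. Drosha (chr15:12824804-12935291, plus strand), the nuclear RNase, had 13.3, 13.5 and 13.8 CPM in Cre-miR122 livers, against 13.0, 12.1 and 14.3 CPM in Cre livers. The Cre-miR122 libraries lay within the Cre range, and the log2 difference was 0.045 ± 0.099 (SE; edgeR adjusted p = 0.938). Dgcr8 (chr16:18253948-18289255, minus strand), the RNA-binding partner of DROSHA, had 17.7, 18.9 and 19.1 CPM in Cre-miR122 livers, against 17.4, 17.5 and 17.2 CPM in Cre livers. Every Cre-miR122 library lay above every Cre library, by a margin smaller than the spread within the Cre-miR122 group. The log2 difference of Dgcr8 was 0.096 ± 0.082 (SE; edgeR adjusted p = 0.827), and the exact two-sided permutation p was 0.10, the smallest that 3 libraries against 3 allow. Of the Dgcr8 exon bases, 825 are shared with Trmt2a, a tRNA methyltransferase gene on the opposite strand. Whether strand was used in the counting is not stated, so reads there could belong to either gene or have been left out of both counts. Trmt2a had 421, 425 and 450 counts in Cre-miR122 livers and 522, 605 and 426 counts in Cre livers.

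Xpo5 (chr17:46202855-46242299, plus strand), the carrier of hairpins out of the nucleus, showed the largest difference of the 10. It had 332, 288 and 339 counts in Cre-miR122 livers, against 269, 281 and 260 counts in Cre livers. In CPM these were 16.5, 13.9 and 16.4 in Cre-miR122 livers and 13.3, 13.1 and 13.0 in Cre livers. All 3 Cre-miR122 libraries were above all 3 Cre libraries, with replicate 2 of Cre-miR122 close to them. The mean was 15.6 ± 1.48 CPM in Cre-miR122 livers and 13.1 ± 0.164 CPM in Cre livers (SD, n = 3 each), a fitted fold of 1.19 with a 95% interval of 1.02 to 1.39. The unadjusted edgeR p was 0.033, the adjusted p was 0.816, and the exact two-sided permutation p was 0.10. Under the other settings tried the log2 difference of Xpo5 stayed between 0.21 and 0.33, with adjusted p from 0.491 to 1.00. Xpo5 and Dgcr8 were the 2 of 10 members whose groups did not overlap, both higher in Cre-miR122 livers. Over all genes tested, 5.7% did not overlap with Cre-miR122 higher and 5.44% with Cre-miR122 lower.

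Dicer1 (chr12:104687737-104752324, minus strand), the cytoplasmic RNase, had 46.4, 44.6 and 46.6 CPM in Cre-miR122 livers, against 42.8, 46.1 and 41.2 CPM in Cre livers. Cre replicate 11 lay among the Cre-miR122 libraries. The fold was 1.06 with an interval of 0.935 to 1.20 (log2 difference 0.082 ± 0.079 SE; edgeR adjusted p = 0.841). Without Cre replicate 11 the log2 difference was 0.13, and without Cre replicate 12 it was 0.046. Dicer1 had 931, 924 and 964 counts in Cre-miR122 livers and 865, 989 and 824 counts in Cre livers.

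No Argonaute passed the test between the vectors, and each had libraries of both groups interleaved. Ago3, Ago1 and Ago4 lie in tandem on the minus strand of chromosome 4 with gaps of 5337 and 20831 bases, while Ago2 lies alone at chr15:73101625-73184947. Ago1 (chr4:126435012-126468709), which silences mainly without cutting, had 20.9, 24.8 and 27.1 CPM in Cre-miR122 livers, against 21.0, 21.0 and 25.9 CPM in Cre livers. Its lowest library was of the Cre-miR122 group, and the log2 difference was 0.10 ± 0.12 (SE; edgeR adjusted p = 0.873). Leaving out single libraries gave Ago1 values from 0.015 without Cre-miR122 replicate 4 to 0.21 without Cre replicate 12.

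Ago2, the Argonaute with slicing activity, had only 92, 99 and 113 counts in Cre-miR122 livers, against 91, 72 and 96 counts in Cre livers. Those are 4.58, 4.78 and 5.46 CPM in Cre-miR122 livers and 4.50, 3.35 and 4.80 CPM in Cre livers. Its groups overlapped, and Cre replicate 11 was the low library. The log2 difference of Ago2 was 0.23 ± 0.17 (SE; edgeR adjusted p = 0.821), with the widest interval of the 10, −0.15 to 0.62. Without Cre replicate 11 it was 0.088, and without Cre replicate 12 it was 0.33.

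Ago3 (chr4:126326989-126429674) had 17.7, 16.6 and 16.7 CPM in Cre-miR122 livers, against 17.5, 19.9 and 15.9 CPM in Cre livers. The Cre libraries held both the highest and the lowest value. Its log2 difference was −0.063 ± 0.10 (SE; edgeR adjusted p = 0.907), and 0.027 without Cre replicate 11. Ago4, the remaining mammalian Argonaute and not among the 10, had 6.33, 9.03 and 7.54 CPM in Cre-miR122 livers, against 6.58, 7.59 and 8.09 CPM in Cre livers. The log2 difference of Ago4 was 0.041 ± 0.16 (SE; edgeR adjusted p = 0.961), and leaving out Cre-miR122 replicate 2 or Cre replicate 10 made it −0.098 or −0.038.

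The make-up of the Argonaute messages differed between the vectors by less than the spread between libraries. Ago1 made up 55.6 ± 2.20% of the 4 Argonautes' summed CPM per kb in Cre-miR122 livers and 54.6 ± 2.54% in Cre livers (SD, n = 3 each). Ago2 made up 10.5 ± 0.642% in Cre-miR122 livers and 9.45 ± 1.51% in Cre livers. The share of Ago3 was 16.0 ± 2.21% in Cre-miR122 livers and 17.6 ± 3.01% in Cre livers, and that of Ago4 was 17.9 ± 2.20% in Cre-miR122 livers and 18.4 ± 1.09% in Cre livers. Each difference was smaller than the larger of its SDs. Ago1 was above Ago2 by 4.91 to 6.76 times per kb in the 6 libraries, and Ago2 was the lowest of the 4 in every library also in raw counts. Lengths enter here: the longest annotated Ago2 transcript in GENCODE M21 has 13800 bases, against 8031 exon bases in the table. Per kilobase of the longest transcript, the means over the 6 libraries were 3.24 for Ago1 and 0.332 for Ago2, a wider gap than the 3.15 and 0.570 per kb of table exons. Reads outside the table's exons were not measured, so the longer length by itself lowers the Ago2 value. The wider gap therefore does not show a lower level of Ago2.

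**Figure D3:**
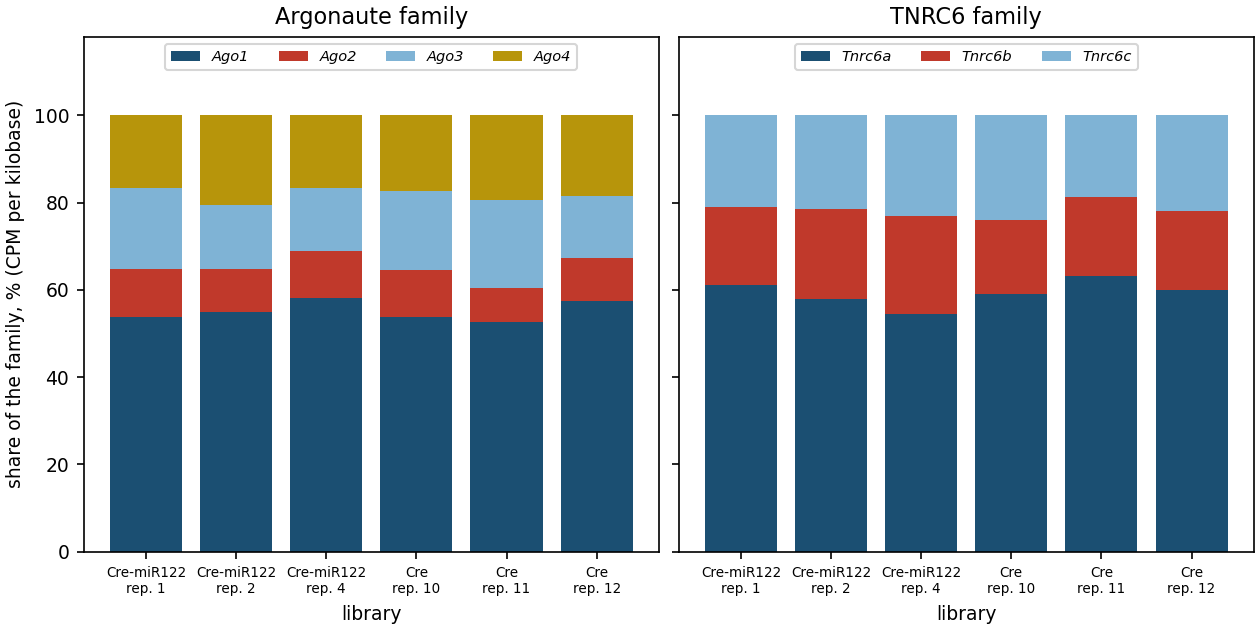
Share of each paralog in the summed CPM per kb of its family, in percent, as stacked bars, 1 per library, with the 3 Cre-miR122 libraries on the left and the 3 Cre libraries on the right of each panel. Ago1 holds 52.6% or more of the Argonaute messages and Tnrc6a 54.4% or more of the TNRC6 messages in every library.

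The TNRC6 scaffolds, which bind Argonautes and recruit the deadenylases, held both the most abundant member and the second smallest p. Tnrc6a (chr7:123031101-123195296, plus strand) had 65.8, 62.7 and 53.1 CPM in Cre-miR122 livers, against 56.5, 71.0 and 59.9 CPM in Cre livers. The groups overlapped broadly, and the log2 difference of −0.046 ± 0.11 (SE; edgeR adjusted p = 0.942) became 0.040 without Cre-miR122 replicate 4 and 0.056 without Cre replicate 11.

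Tnrc6b (chr15:80711313-80941086, plus strand) had 33.5, 39.1 and 38.2 CPM in Cre-miR122 livers, against 28.2, 35.1 and 31.9 CPM in Cre livers. Cre replicate 11 lay above the lowest Cre-miR122 library. For Tnrc6b the log2 difference was 0.22 ± 0.10 (SE; edgeR adjusted p = 0.816). It was 0.14 without Cre replicate 10 and 0.30 without Cre replicate 11. Tnrc6c (chr11:117654125-117763439, plus strand) had 21.4, 22.1 and 21.4 CPM in Cre-miR122 livers, against 21.9, 20.0 and 20.7 CPM in Cre livers. It was the steadiest member, with a coefficient of variation of 3.64% over the 6 libraries, against 15.1% for Ago2. Its log2 difference was 0.051 ± 0.079 (SE; edgeR adjusted p = 0.904), 0.086 without Cre replicate 10 and 0.020 without Cre replicate 11.

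Within the TNRC6 family, Tnrc6a made up 57.8 ± 3.37% of the summed CPM per kb in Cre-miR122 livers and 60.7 ± 2.26% in Cre livers (SD, n = 3 each). Tnrc6b made up 20.4 ± 2.32% in Cre-miR122 livers and 17.7 ± 0.729% in Cre livers, and Tnrc6c 21.8 ± 1.12% in Cre-miR122 livers and 21.6 ± 2.67% in Cre livers. The lowest Cre-miR122 share of Tnrc6b, 17.9%, lay within the Cre range, which ended at 18.3%.

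Taking the 10 genes as a whole, their summed level was 258, 261 and 258 CPM in Cre-miR122 livers, against 236, 259 and 245 CPM in Cre livers. Cre replicate 11 reached the Cre-miR122 values. The mean of the members' log2 CPM, each centred on its own mean over the libraries, was 0.022, 0.045 and 0.080 in Cre-miR122 livers, against −0.073, −0.047 and −0.027 in Cre livers. Over all genes tested the centred log2 CPM had a median of 0.0038, 0.0025 and −0.0012 in the Cre-miR122 libraries. In the Cre libraries that median was 0.00033, 0.0029 and 0.0036. Of the 10 members, 6, 8 and 8 were above their own mean in the Cre-miR122 libraries, against 2, 4 and 3 in the Cre libraries. The members were read in the same 6 libraries and are not replicates of each other, and this pattern was not tested. Gene by gene, the median absolute log2 difference was 0.089 over the members and 0.11 over all genes tested. The genes with the profile nearest to that mean over the 6 libraries were Tbcel, Slu7 and Vps37a, at root-mean-square differences of 0.012, 0.016 and 0.017 on the log2 scale. Of these, Tbcel had 64.6, 65.4 and 66.0 CPM in Cre-miR122 livers and 59.9, 61.7 and 61.2 CPM in Cre livers. The 3 genes were picked for likeness to the members' mean, in which the groups do not overlap. A like difference between the vectors therefore came with the choice and is no separate result.

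The partners of the machinery were read from 4 lists, and 0 of their tested genes were called higher and 0 lower by edgeR. In the first 3 lists 0 genes had an unadjusted p under 0.05, and in the last list 2 did. Among the 13 Microprocessor and export cofactors the log2 difference was above 0 in 4 and below 0 in 9, with a median of −0.061. Ran, the GTPase that exportin 5 needs to hold its cargo, had 101, 99.9 and 99.0 CPM in Cre-miR122 livers, against 102, 101 and 94.6 CPM in Cre livers. Ranbp1, which helps release Ran from exportins, had 32.2, 31.0 and 30.3 CPM in Cre-miR122 livers, against 38.1, 37.5 and 31.1 CPM in Cre livers. The Cre-miR122 group overlapped Cre replicate 12, and the log2 difference of Ranbp1 was −0.19 ± 0.097 (SE; edgeR adjusted p = 0.816). The RNA-editing enzyme gene Adar had 26.1, 26.9 and 24.9 CPM in Cre-miR122 livers and 24.7, 36.5 and 27.5 CPM in Cre livers, with Cre replicate 11 far above the rest. Its log2 difference was −0.19 ± 0.14 (SE), −0.011 without that library and −0.30 without Cre replicate 10. The exportin gene Xpo1 had a log2 difference of 0.073 ± 0.10 (SE).

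Of the Dicer and RISC loading partners 13 of 14 were tested, Trim71 being at 0 counts in all 6 libraries. The log2 difference was above 0 in 8 and below 0 in 5, with a median of 0.041. Hspa8, the chaperone that helps load Argonautes, had 753, 847 and 901 CPM in Cre-miR122 livers, against 851, 1033 and 861 CPM in Cre livers, a log2 difference of −0.14 ± 0.11 (SE). Leaving out Cre replicate 11 made it −0.039, and leaving out Cre-miR122 replicate 1 made it −0.066. The other named partners were Ipo8 at 0.094 ± 0.094, Limd1 at 0.069 ± 0.092 and Wtip at −0.18 ± 0.23 (log2 difference ± SE). The import receptor gene Ipo8 and the LIM-domain genes Limd1 and Wtip encode proteins that bind Argonautes.

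The 31 deadenylation and decapping genes, which carry out the silencing downstream of TNRC6, had a median log2 difference of 0.013, with 19 above 0 and 12 below. Cnot1, the scaffold of the CCR4-NOT deadenylase, had 66.9, 76.9 and 91.5 CPM in Cre-miR122 livers, against 66.3, 60.8 and 71.0 CPM in Cre livers. The groups overlapped, and its log2 difference of 0.25 ± 0.12 (SE; edgeR adjusted p = 0.816) was 0.12 without Cre-miR122 replicate 4. Btg2, which brings CCR4-NOT to its targets, had 62.0, 43.8 and 34.2 CPM in Cre-miR122 livers, against 40.6, 29.8 and 34.4 CPM in Cre livers. A single library, Cre-miR122 replicate 1, stood high: the log2 difference was 0.42 ± 0.20 (SE; edgeR adjusted p = 0.816) with it and 0.16 without it. Of the decapping genes, the cofactors Dcp1a at −0.18 ± 0.11 and Dcp1b at −0.23 ± 0.14 (log2 difference ± SE) did not pass the test. Dcp1a was −0.097 without Cre replicate 11 and −0.28 without Cre replicate 10, and Dcp1b was −0.15 without Cre-miR122 replicate 1. The decapping enzyme gene Dcp2, named after its values were seen, had a log2 difference of the other sign, 0.085 ± 0.093 (SE).

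Genes of microRNA tailing and turnover, which add bases to microRNAs or degrade them, numbered 13 tested of 15. The log2 difference was above 0 in 9 and below 0 in 4, with a median of 0.068 that was −0.029 without Cre-miR122 replicate 4. An unadjusted p under 0.05 was reached by 2, both with Cre-miR122 higher, beside 5.41% of all genes. The groups did not overlap in 4, beside 5.7% of all genes with Cre-miR122 higher and 5.44% with it lower: Dis3l2, Celf1 and Eri1 with Cre-miR122 higher and Tut1 with Cre-miR122 lower. Dis3l2, the exonuclease that degrades uridylated precursors of let-7, had 13.0, 11.7 and 14.3 CPM in Cre-miR122 livers, against 11.7, 9.55 and 10.3 CPM in Cre livers. Replicate 2 of Cre-miR122 and replicate 10 of Cre were nearly level, and the log2 difference was 0.31 ± 0.12 (SE; edgeR adjusted p = 0.816). Celf1, an RNA-binding protein that recruits a deadenylase, had 102, 106 and 109 CPM in Cre-miR122 livers, against 97.1, 87.8 and 94.4 CPM in Cre livers. For Celf1 the log2 difference was 0.18 ± 0.077 (SE; edgeR adjusted p = 0.816). The exonuclease gene Eri1, named here after its values were seen, had 15.0, 15.1 and 15.3 CPM in Cre-miR122 livers, against 12.2, 12.5 and 14.5 CPM in Cre livers. Tut1, a terminal uridylyltransferase best known for U6 RNA, had 15.4, 16.4 and 15.9 CPM in Cre-miR122 livers, against 16.8, 25.2 and 16.5 CPM in Cre livers. Its log2 difference was −0.30 ± 0.16 (SE; edgeR adjusted p = 0.816), and −0.068 without Cre replicate 11.

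Papd4 encodes the poly(A) polymerase GLD2, known to add an adenosine to miR-122 and stabilise it in liver; it was also named after its values were seen. It had 28.6, 30.9 and 29.8 CPM in Cre-miR122 livers, against 31.0, 29.6 and 32.3 CPM in Cre livers, and the groups overlapped. Zswim8, whose ubiquitin ligase destroys Argonautes on highly paired targets, had 60.0, 53.7 and 53.9 CPM in Cre-miR122 livers, against 56.5, 68.4 and 59.1 CPM in Cre livers. The log2 difference of Zswim8 was −0.13 ± 0.096 (SE), and −0.049 without Cre replicate 11. Lin28b, a fetal inhibitor of let-7 processing, held 4, 0 and 4 counts in Cre-miR122 livers, against 0, 2 and 1 counts in Cre livers, too few to be tested.

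**Figure D4:**
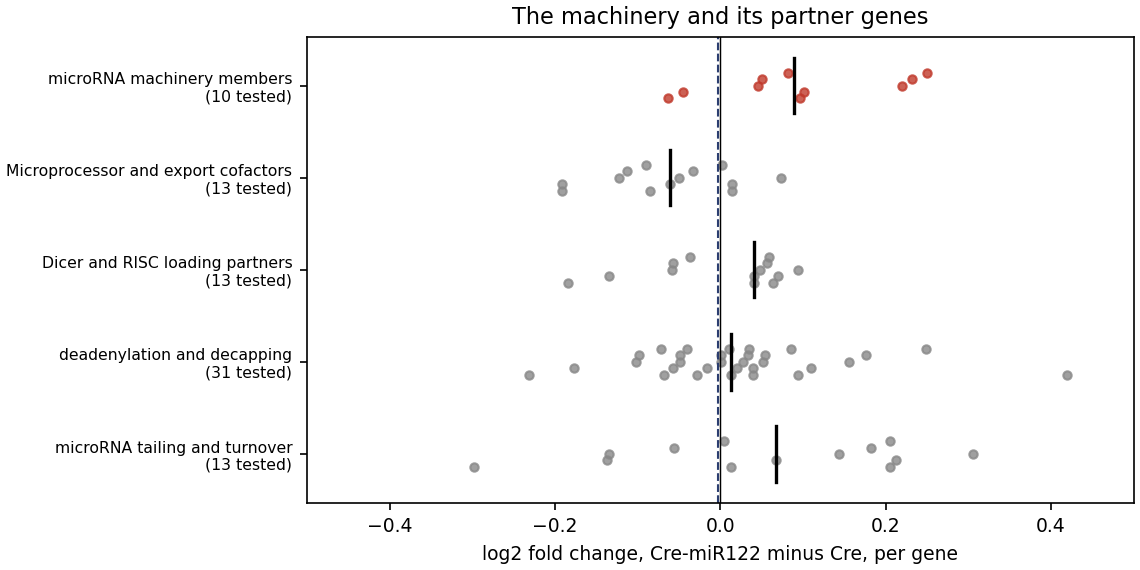
Log2 difference of every tested gene, Cre-miR122 minus Cre, in the 10 members and the 4 partner lists; points are genes, short vertical lines are list medians and the dashed line is the median of all genes tested. Btg2 lies farthest from 0, at 0.42, and no gene in any list was called.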

How the data were processed

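The 6 mouse liver libraries were grouped by their titles. The authors deposited raw counts of reads per gene. The submitters' processing notes name STAR 2.7.9a, featureCounts 2.0.1 and the build GRCm38 (mm10). Strand use and the handling of reads with several matches, which bears on paralogs, are stated in no source used here. The table also holds 5 columns that belong to no sample here, which were not used.

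The members and lists were chosen with earlier results of these data known. Counts were tested with edgeR 4.0.16 in R 4.3.3 (quasi-likelihood F test, TMM scaling, filterByExpr, group alone, two-sided, Benjamini-Hochberg adjusted p under 0.05), leaving 14374 genes. Standard errors come from the F statistic, and CPM use TMM-scaled totals. No library repeated another: chi-square over degrees of freedom was 5.82 or more for every pair. Alternatives were other scalings (RLE, upper-quartile, totals alone), other filters, DESeq2 1.42.0, limma-voom (limma 3.58.1), leaving out each library, raw shares, and, added after the data were seen, another transcript length. The code was tested on simulated data. Sequences were read with Python 3.11.15 from RefSeq tables of GRCm38.p6. Besides the members, Ago4, Lin28b and the library checks, the named genes were, per list, up to 4 genes at a mean of at least 1 CPM, those 2 in each direction of difference with the smallest p, and the 3 nearest profiles.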

Additional observations from a re-analysis of the deposited data

How the results depend on the processing

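No member was called under any alternative. The median log2 difference of the members stayed positive, from 0.065 without Cre-miR122 replicate 4 to 0.10 without Cre-miR122 replicate 1. Over all genes, DESeq2 called 1 higher (Psrc1) and 2 lower (Prok1 and Cre), and edgeR without the filter, over 23347 genes, called 2 lower (Cre and Prok1), against 0 in the edgeR test as reported. The number of genes with an unadjusted p under 0.05 ran from 425 to 1535 when single libraries were left out. No paired analysis was possible because the groups share no replicate numbers.

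Some log2 differences changed sign when 1 library was left out. Over the 6 such fits the range was −0.14 to 0.027 for Ago3, −0.11 to 0.056 for Tnrc6a, −0.013 to 0.11 for Drosha and −0.0022 to 0.11 for Limd1, the last value of Ago3 and Tnrc6a and the first of Drosha and Limd1 without Cre replicate 11. It was −0.098 to 0.16 for Ago4 and −0.016 to 0.16 for Xpo1, both lowest without Cre-miR122 replicate 2, −0.39 to 0.033 for Wtip, and −0.016 to 0.034 for Ran. Ran was also −0.0021 with upper-quartile scaling and −0.0084 with library totals alone. When single libraries were left out, the list medians ran from −0.029 to 0.16 for tailing and turnover, from −0.0031 to 0.076 for Dicer and RISC loading partners, from −0.10 to −0.011 for cofactors and from −0.0011 to 0.034 for deadenylation and decapping. The last was also −0.0035 with upper-quartile scaling and −0.0088 with library totals alone. Ipo8 ran from 0.025 to 0.15 and Papd4 from −0.089 to −0.025. The cause was not tested.

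Shares move with the length used. On raw counts they were 44.1% for Ago1, 8.64% for Ago2, 33.0% for Ago3, 14.2% for Ago4, 52.4% for Tnrc6a, 29.3% for Tnrc6b and 18.2% for Tnrc6c. Per kilobase of the longest GENCODE transcript, a setting added after the data were seen, they were 5.68% for Ago2, 66.2% for Tnrc6a and 16.3% for Tnrc6c. On that scale Dgcr8 (4.16 CPM per kb) lay above Ago1 (3.24), Drosha (2.92) and Xpo5 (2.83 CPM per kb). Tnrc6b (1.98 CPM per kb) lay above Tnrc6c (1.83 CPM per kb), while Tnrc6a stayed highest and Ago2 lowest. For Ago2, Xpo5 and Tnrc6c the counted exons hold fewer bases than this length, which by itself lowers their values and shares on that scale. Among the 10 members Ago2 had the fewest counts: its 72 counts in Cre replicate 11 have an exact 95% Poisson interval of 56.3 to 90.7, which covers counting error only.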
